A study of Mus musculus with 40 samples.

Results

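The genes described here are 40 chemokines and inflammatory cytokines, the secreted or membrane-bound signals with which cells call in and instruct leukocytes. They were taken by symbol from a list, and all 40 were found among the 24062 genes of a table of RNA-Seq read counts from mouse embryonic fibroblasts (MEFs). The MEFs were primary cells of 13.5 days post coitum embryos at passage 3, on a mixed C57BL/6J-129P2OlaHsd background, and were wild type for the transcription factor gene Sall2 (WT), heterozygous (Het) or homozygous for its targeted allele (KO). In KO the targeted gene is flanked by a chromosome 14 segment from the 129 strain, and 0 of the 40 members lie on that chromosome. Each culture was left untreated (control) or kept for 16 h in doxorubicin at 1 µM, a drug that traps topoisomerase II on DNA and breaks it. The control libraries were 1 WT, 1 Het and 3 KO, and the doxorubicin libraries 1 WT, 1 Het and 3 KO. The columns of KO 2 and KO 3 with doxorubicin were identical in all 24062 rows, so they were counted as 1 library, KO 2, which leaves 9. WT and Het rest on 1 culture each and the KO cultures come from separate embryos. In fits with genotype as a term, the spread behind the p-values is therefore mainly that between KO cultures. In the fit below that compares each culture with itself, it is how the drug change differs among the 4 cultures with both treatments. KO 3 adds nothing to that spread.

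Total counts per library ran from 15560728 to 24122414, of which the members took between 0.125% and 0.540%. Untreated, the targeted gene was counted 756 times in WT, 587 times in Het and 388 to 432 times in KO (Sall2). Libraries with the same label number were taken as the same culture, which the sources do not state in words. The doxorubicin library counted once had 0 counts over 4 Y-linked genes, as against 1 in KO control 2 and 6397 in KO control 3. Fibroblast markers (Col1a1, Col3a1, Vim and others, 10 of 10 above 3 counts in every library) summed to between 77178 and 94274 CPM (counts scaled to library size) in untreated WT, KO 1 and KO 2, but to 20544 in Het and 16555 in KO 3. These 2 untreated cultures stood apart from the other 3 in most members as well, so the drug comparison is also given without them. Fewer cells of a type and less RNA per cell cannot be told apart in such bulk samples.

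Chemokines fall into families by the spacing of their first cysteines (CXC, CC and CX3C), and each draws the leukocytes that carry its receptor, neutrophils for Cxcl1 and its relatives, monocytes for Ccl2 and activated T cells for Cxcl10. Fibroblasts make several of them at rest and many more after contact with IL-1, TNF, interferon or microbial products, through NF-kB, AP-1, STAT and IRF transcription factors acting at short promoters and enhancers. DNA damage can switch on a part of the same set, and damaged or senescent fibroblasts are known for releasing IL-6, Cxcl1 and related factors.

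Several members lie side by side in the mouse genome (GRCm38, GENCODE M21 coordinates). On chromosome 11, Ccl2, Ccl7, Ccl11, Ccl12 and Ccl8 share chr11:82035571-82116799, and Ccl5, Ccl9, Ccl6, Ccl3 and Ccl4 share chr11:83525778-83664683. On chromosome 5, Cxcl5, Cxcl3, Cxcl1 and Cxcl2 share chr5:90759360-90905938 and Cxcl9, Cxcl10 and Cxcl11 share chr5:92321347-92365485. Ccl22, Cx3cl1 and Ccl17 lie at chr8:94745590-94812036 and Il1a and Il1b at chr2:129299610-129371139. The gene bodies of Ccl2 and Ccl7 are 8259 bases apart, and those of Cxcl1 and Cxcl2 10756.

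Promoter windows, from 250 bases before a gene's start to 50 bases from the start on, were given for 28 of the 40 members (31 windows, RefSeq, GRCm38.p6). The 5 shown first are those of Cxcl1, Cxcl2, Cxcl10, Il6 and Il11, which the results below turn on, and Csf1 is added as a member that fell in both fits below. Capitals mark matches, on either strand, to GGNNNTTCC (NF-kB), AAANNGAAA (the interferon-stimulated response element), TGANTCA (AP-1) and TATAAA (the TATA box).
Cxcl1 (chr5:90890995-90891294, plus strand): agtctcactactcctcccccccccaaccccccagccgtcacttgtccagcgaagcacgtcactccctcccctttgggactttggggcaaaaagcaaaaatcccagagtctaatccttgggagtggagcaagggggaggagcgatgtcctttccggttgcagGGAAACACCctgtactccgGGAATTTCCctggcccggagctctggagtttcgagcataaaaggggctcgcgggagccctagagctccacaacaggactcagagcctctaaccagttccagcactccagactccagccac
Cxcl2 (chr5:90903649-90903948, plus strand): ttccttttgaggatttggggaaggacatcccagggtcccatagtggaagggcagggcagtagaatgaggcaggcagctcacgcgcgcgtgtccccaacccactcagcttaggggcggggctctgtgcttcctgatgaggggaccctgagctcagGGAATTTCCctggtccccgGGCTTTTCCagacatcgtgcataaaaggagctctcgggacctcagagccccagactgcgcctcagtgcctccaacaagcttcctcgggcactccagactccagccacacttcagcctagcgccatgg
Cxcl10 (chr5:92348840-92349139, minus strand): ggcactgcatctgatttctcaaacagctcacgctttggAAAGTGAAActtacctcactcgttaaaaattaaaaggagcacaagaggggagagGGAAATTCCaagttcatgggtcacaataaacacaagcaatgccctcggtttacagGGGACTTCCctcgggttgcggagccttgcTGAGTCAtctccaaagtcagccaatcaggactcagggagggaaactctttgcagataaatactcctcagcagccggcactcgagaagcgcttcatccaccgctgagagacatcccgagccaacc
Il6 (chr5:30012864-30013163, plus strand): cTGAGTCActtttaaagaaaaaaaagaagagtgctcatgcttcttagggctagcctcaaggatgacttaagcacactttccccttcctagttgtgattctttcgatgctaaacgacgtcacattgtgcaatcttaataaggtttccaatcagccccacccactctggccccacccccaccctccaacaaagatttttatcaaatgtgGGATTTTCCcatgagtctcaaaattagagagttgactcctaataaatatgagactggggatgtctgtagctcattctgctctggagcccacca
Il11 (chr7:4778092-4778391, minus strand, the inner of its 2 windows): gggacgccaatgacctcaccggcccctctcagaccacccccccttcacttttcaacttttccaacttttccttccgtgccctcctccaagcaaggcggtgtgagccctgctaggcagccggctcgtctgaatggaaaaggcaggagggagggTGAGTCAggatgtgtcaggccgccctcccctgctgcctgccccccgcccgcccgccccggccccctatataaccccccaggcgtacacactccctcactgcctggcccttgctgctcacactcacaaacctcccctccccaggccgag
Csf1 (chr3:107760420-107760719, minus strand): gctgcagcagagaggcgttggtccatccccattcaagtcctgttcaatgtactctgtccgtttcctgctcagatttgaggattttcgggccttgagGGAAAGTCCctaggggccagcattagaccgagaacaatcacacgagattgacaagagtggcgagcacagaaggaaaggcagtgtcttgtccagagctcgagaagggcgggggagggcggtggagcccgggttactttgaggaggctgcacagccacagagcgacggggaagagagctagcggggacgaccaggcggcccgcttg

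The NF-kB letters were found in 14 of the 31 member windows (45.2%), against 6070 of all 32851 windows of that length (18.5%). In Cxcl1 and Cxcl2 they occurred as a pair, 89 and 70 bases before the start in Cxcl1 and 96 and 77 in Cxcl2. AP-1 letters were in 7 member windows (22.6%, against 7.81% of all), among them those of Il11 at 98 bases and Cxcl10 at 74 bases before the start. The interferon element was in 2 (6.45%, against 10.6%), one of them Cxcl10, 212 bases before the start, and the TATA letters were in 14 (45.2%, against 13.6%). Members of 1 gene cluster arose by duplication and share sequence, so the windows are not independent, and a match is a description of the letters only.

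Levels below are CPM scaled by edgeR's TMM library sizes. They are given in the order WT, Het, KO 1, KO 2 and KO 3 for control, and WT, Het, KO 1 and KO 2 for doxorubicin. Per kilobase of exon, the highest members in the untreated WT culture were Cxcl12 (182 CPM per kb), Csf1 (114), Ccl2 (53.8), Ccl7 (44.6), Cxcl14 (27.4), Cx3cl1 (23.9) and Lif (8.40). A count of 3 corresponds to between 0.124 and 0.167 CPM, and values at or under it are given but not compared.

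**Figure D1:**
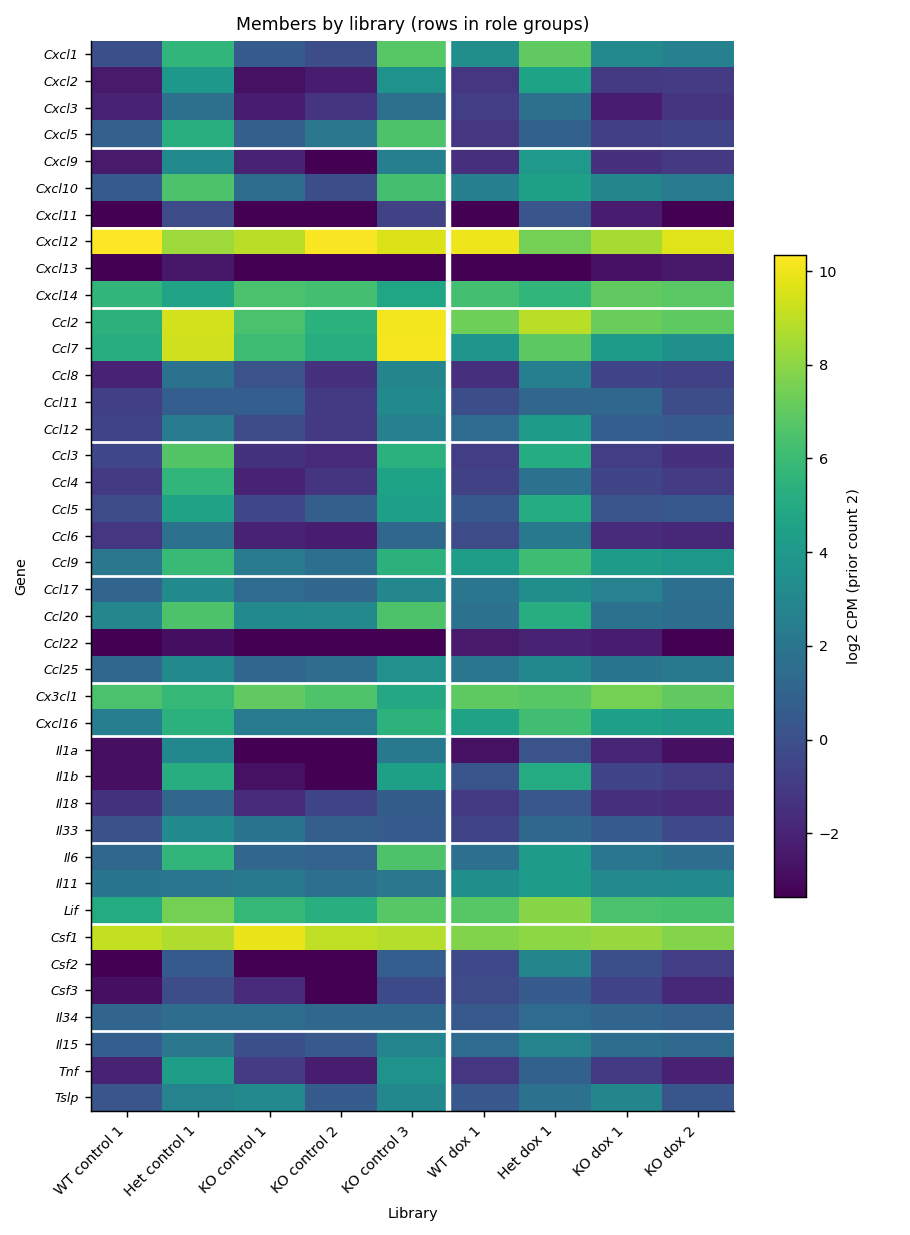
Colour gives log2 CPM (prior count of 2) of the 40 members (rows, in role groups split by thin lines) in the 9 libraries (columns, control left and doxorubicin right of the thick line). Het control 1 and KO control 3 are bright in most rows, and Cxcl12 and Csf1 are bright in every column. Het is the brightest doxorubicin column in 29 of the 35 members at a mean of at least 1 CPM. Over all 13873 genes at that level this was so in 5817. Some members reach that mean only through the Het and KO 3 cultures, so the 29 is in part set by the filter.

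Without treatment, the Het culture and KO 3 were the 2 highest of the 5 cultures in 27 of the 35 members at a mean of at least 1 CPM (77.1%). Over all 13873 genes at that level this was so in 37.6%. The highest untreated culture exceeded the lowest more than 4-fold in 31 of the 35 members (88.6%), against 15.3% of all genes. The median log2 ratio of these 35 members to the untreated WT culture was 3.73 in Het and 3.71 in KO 3, but 0.26 in KO 1 and -0.08 in KO 2, where the median of all 14883 genes tested lay within 0.02 of 0 in each. Those 14883 genes were chosen by a different filter, on counts, which some of the 35 did not pass. Some members reached the mean of 1 CPM only through the Het and KO 3 cultures. Il1a, for example, had 1, 0 and 0 counts in untreated WT, KO 1 and KO 2, and 193 and 99 in Het and KO 3. The shares and medians of the 35 are thus in part set by the filter. Within that limit, the medians of the Het culture and KO 3 were alike, and those of KO 1 and KO 2 lay near WT. WT and Het have 1 culture each, and the part of genotype in this was not tested. Of the 8 members outside those 27, Cxcl12, Cxcl14, Cx3cl1, Csf1, Il11 and Il34 were at most 1.39-fold above WT in Het and in KO 3, and in Il33 and Tslp KO 1 was among the highest.

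Other transcripts moved with these 2 cultures. The summed level of 16 interferon-stimulated genes (Ifit1, Mx1, Irf7 and others) was 155 to 173 CPM in untreated WT, KO 1 and KO 2 and 2792 and 3048 CPM in Het and KO 3. Of 17 macrophage markers 16 were in the table, all above 3 counts in every library, and they summed to 164 to 301 CPM in the former and to 958 CPM in Het and 631 CPM in KO 3. The largest part was Lyz2, at 93.5 CPM in WT, 339 in Het and 289 in KO 3. C1qa went the other way, at 23.3 CPM in WT, 12.4 in Het and 5.94 in KO 3. Csf1r (28.1 and 22.7 CPM) and C1qc (19.9 and 16.0 CPM) were lower in KO 3 than in WT. The other markers were higher in both cultures than in WT. With doxorubicin the macrophage sum was 137 to 227 CPM in WT and KO and 1106 CPM in Het, and the interferon-stimulated sum was 496 to 603 CPM and 1775 CPM. Lymphocyte markers (6 genes) summed to at most 9.65 CPM and mast cell markers (4 genes) to at most 8.62 CPM in any library. Cd3e was at 0 in several libraries and Tpsb2 in every one. Cd79a reached 8.13 CPM in Het with doxorubicin, against at most 0.540 CPM in control. Kit, most of the mast cell sum, was at 0.405 to 0.951 CPM in control and at 7.47 to 8.53 CPM with doxorubicin. Endothelial markers (5 genes) reached 90.6 CPM in WT with doxorubicin and epithelial markers (4 genes) 18.5 CPM in untreated WT. The part of any of these in the levels of the members was not tested.

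**Figure D2:**
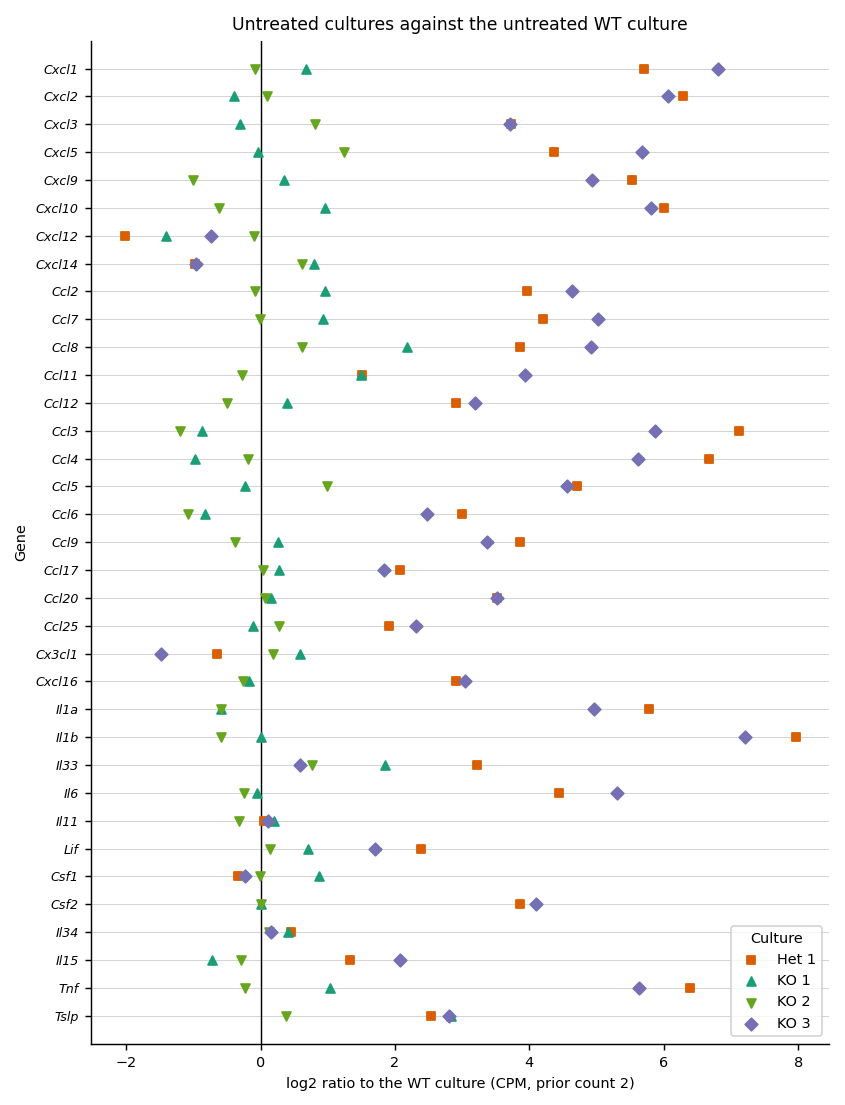
Horizontal axis, log2 ratio of each untreated culture to the untreated WT culture, which all ratios share, for the 35 members at a mean of at least 1 CPM (prior count of 2, 1 library per point). Het (squares) and KO 3 (diamonds) lie to the right in most rows, and KO 1 and KO 2 (triangles) lie near 0.

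In the comparison of doxorubicin with control over the 9 libraries, with genotype as a term, 32 of the 40 members had enough counts to be tested. By edgeR's quasi-likelihood test at an FDR under 0.01, 1 member rose (Il11) and 1 fell (Csf1), against a background of 21.9% higher and 20.2% lower among the 14883 genes tested. With the culture as a replicate block, which compares each culture with itself, 10 members rose (Cxcl1, Cxcl14, Ccl12, Ccl9, Cx3cl1, Cxcl16, Il11, Lif, Csf2 and Il15) and 6 fell (Cxcl5, Cxcl12, Ccl7, Ccl20, Il33 and Csf1), against 30.6% higher and 28.8% lower among all genes. The share of 10 in 32 is near that background, and the share of 6 in 32 below it. The median log2 fold change of the tested members was -0.49 with genotype as a term and 0.62 with the block, where that of all genes was -0.02 and 0.03. Without KO control 3, which has no doxorubicin library of its own, and with genotype as a term, 29 members were tested, the same 10 rose and 5 of the same 6 fell, Cxcl12 being the exception (background 31.5% and 29.4%). Leaving out the Het libraries as well, 12 of 25 tested members rose and 4 fell (background 35.4% and 32.4%), with Cxcl10, Ccl2 and Ccl25 now among the former. With the block and without the Het libraries, 17 of 29 rose and 6 fell (background 39.3% and 35.8%), where Ccl17, Il1b, Il6, Csf2 and Csf3 passed as well. This setting was not planned in advance. Taking the library counted once as that of KO 3 in the block, 1 rose and 2 fell, where 3177 of all 14883 genes rose and 2848 fell. Within KO alone 0 of 30 members passed, with 5 at an unadjusted p under 0.05 by edgeR. Of all 14904 genes tested there, 1911 passed and 6844 were at an unadjusted p under 0.05. In CPM the control and doxorubicin libraries overlapped in every member but Il11 and Csf1, and the share of all genes without overlap was not counted. The 8 members not tested were Cxcl2, Cxcl3, Cxcl9, Cxcl11, Cxcl13, Ccl22, Il1a and Tnf.

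**Figure D3:**
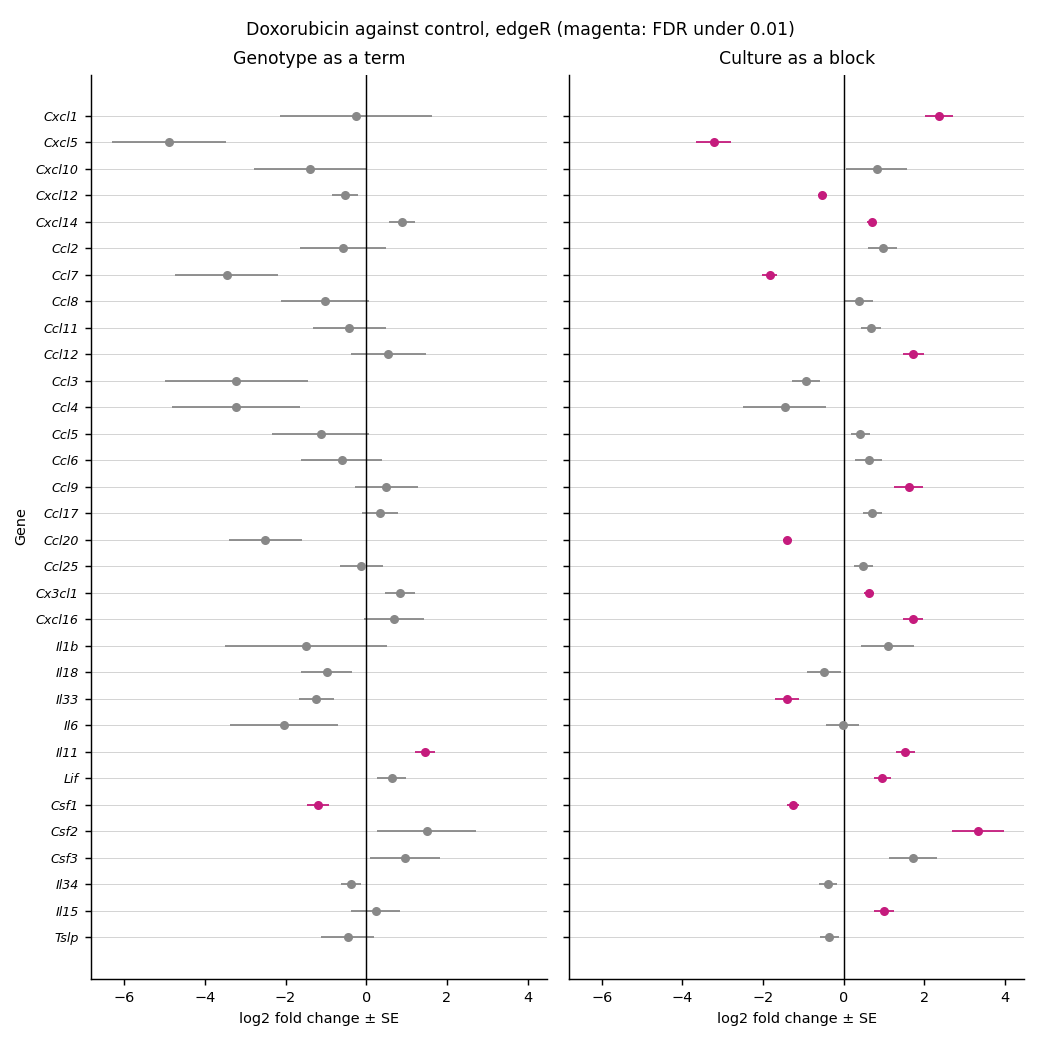
Log2 fold change of doxorubicin against control with its SE (bars) for the 32 members tested, with genotype as a term (left) and with the culture as a block (right), with members past an FDR of 0.01 in magenta. Il11 and Csf1 pass in both panels, and Cxcl1 moves from -0.26 on the left to 2.36 on the right.

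The neutrophil-attracting CXC chemokines are ligands of Cxcr2. Control levels of Cxcl1 were 0.88, 50.8, 1.46, 0.826 and 109 CPM. In doxorubicin it measured 10.6, 127, 8.3 and 6.23 CPM. The control and doxorubicin values overlap because of Het and KO 3, yet each of the 4 cultures rose, 12.1-fold in WT, 2.49-fold in Het, 5.70-fold in KO 1 and 7.55-fold in KO 2. Cxcl1 thus differed between the fits, with a log2 fold change of -0.26 ± 1.89 (SE, edgeR FDR 0.918) with genotype as a term and a log2 fold change of 2.36 ± 0.34 (SE, edgeR FDR 0.000478) with the culture block. Cxcl5, of the same gene cluster, went the other way. Untreated, Cxcl5 was at 1.71, 37.4, 1.66, 4.19 and 92.6 CPM. The treated values were 0.348, 1.78, 0.501 and 0.55 CPM. Cxcl5 fell 4.92-fold, 21.0-fold, 3.31-fold and 7.61-fold in WT, Het, KO 1 and KO 2, with a log2 fold change of -4.89 ± 1.42 (SE, edgeR FDR 0.0174) and, with the block, a log2 fold change of -3.23 ± 0.43 (SE, edgeR FDR 0.000317). Cxcl2 had 0.0978, 15.2, 0.0503, 0.11 and 13 CPM without treatment. After the drug the values were 0.348, 24.4, 0.39 and 0.413 CPM. Cxcl2 was at 1 or 2 counts in untreated WT, KO 1 and KO 2 and at 7 to 9 counts there with doxorubicin, while the 3 high libraries held 288 to 481. Cxcl3 had 2 to 6 counts in the former, 76 and 69 in untreated Het and KO 3, and 9, 62, 2 and 7 with doxorubicin in WT, Het, KO 1 and KO 2. Cxcl2 was thus higher with doxorubicin in each of the 4 cultures, but its untreated WT, KO 1 and KO 2 counts lay under the floor of 3. Cxcl3 was too low elsewhere than in Het and KO 3 to show a change with the drug.

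The interferon-inducible CXC chemokines Cxcl9, Cxcl10 and Cxcl11 draw activated T cells through Cxcr3. Cxcl10 stood at 1.32, 91, 2.66, 0.826 and 79.1 CPM in control. Treated cultures had 5.81, 22.4, 7.41 and 4.95 CPM. Cxcl10 was 4.40-fold, 2.78-fold and 5.99-fold higher with doxorubicin in WT, KO 1 and KO 2, but 4.07-fold lower in Het, and its groups overlap. Its fit gave a log2 fold change of -1.39 ± 1.39 (SE, edgeR FDR 0.423) and, with the block, a log2 fold change of 0.82 ± 0.76 (SE, edgeR FDR 0.354), whereas without the Het libraries and KO control 3 it rose, with a log2 fold change of 1.90 ± 0.35 (SE, edgeR FDR 0.000706). Cxcl9 had 2, 216, 3, 0 and 131 counts without treatment and 5, 330, 5 and 8 with doxorubicin. Cxcl11 was at 0 in untreated WT, KO 1 and KO 2, had 19 and 12 counts in Het and KO 3, and with doxorubicin had 0, 22, 2 and 0. Both were thus read mainly in the cultures in which interferon-stimulated genes were high.

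Cxcl12, the ligand of Cxcr4, and Cxcl14 are made by resting fibroblasts. Control levels of Cxcl12 were 1303, 321, 491, 1220 and 784 CPM. Doxorubicin libraries gave 1036, 180.3, 380.2 and 813 CPM of Cxcl12. WT and KO 2 were the highest and Het the lowest in both treatments, unlike in most members. Cxcl12 was 1.26 to 1.78-fold lower with doxorubicin in all 4 cultures, with a log2 fold change of -0.53 ± 0.33 (SE, edgeR FDR 0.211) and, with the block, a log2 fold change of -0.53 ± 0.11 (SE, edgeR FDR 0.00332). Cxcl14 ran from 25.3 to 86.6 CPM in control and from 49.7 to 130 CPM with doxorubicin. It was 1.5 to 1.97-fold higher in the 4 cultures and passed with the block (a log2 fold change of 0.69 ± 0.11 SE, edgeR FDR 0.000735), not with genotype as a term (a log2 fold change of 0.89 ± 0.32 SE, edgeR FDR 0.0404). Cxcl13, which attracts B cells, had at most 2 counts in any library.

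The CC chemokines of monocytes and eosinophils are here Ccl2, Ccl7, Ccl8, Ccl11 and Ccl12. Of these, Ccl2, Ccl7 and Ccl12 bind Ccr2 and Ccl11 binds Ccr3. Untreated, Ccl2 was at 43.7, 685, 84.7, 41.4 and 1085 CPM. Its treated levels were 158, 484, 156 and 125 CPM. Ccl7 had 35.7, 661, 68, 35.7 and 1164 CPM without treatment. Ccl7 fell to 14.5, 119, 18.7 and 11.3 CPM with the drug. Both genes were high in untreated Het and KO 3, but with doxorubicin the neighbours parted. Ccl2 was 3.60-fold, 1.84-fold and 3.01-fold higher in WT, KO 1 and KO 2 and 1.42-fold lower in Het, and Ccl7 was 2.46-fold, 5.56-fold, 3.63-fold and 3.15-fold lower in WT, Het, KO 1 and KO 2. Ccl2 did not pass (a log2 fold change of -0.58 ± 1.06 SE, edgeR FDR 0.665, and with the block a log2 fold change of 0.96 ± 0.36 SE, edgeR FDR 0.041) unless the Het libraries and KO control 3 were left out, when it had a log2 fold change of 1.37 ± 0.25 (SE, edgeR FDR 0.000547). Ccl7 passed with the block (a log2 fold change of -1.84 ± 0.19 SE, edgeR FDR 8.18e-05) but not without it (a log2 fold change of -3.46 ± 1.27 SE, edgeR FDR 0.0457).

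The other 3 of this group were low. Ccl12 stood at 0.587, 5.05, 0.804, 0.386 and 6.17 CPM in control. With doxorubicin it was at 2.63, 18.6, 1.56 and 1.38 CPM. Ccl12 was 4.49-fold, 3.70-fold, 1.94-fold and 3.57-fold higher in the 4 cultures, with a log2 fold change of 0.55 ± 0.93 (SE, edgeR FDR 0.64) and, with the block, a log2 fold change of 1.73 ± 0.26 (SE, edgeR FDR 0.000582). Control levels of Ccl11 were 0.489, 1.57, 1.56, 0.386 and 8.87 CPM. In doxorubicin it measured 0.844, 2.18, 2.28 and 0.825 CPM. Ccl11 differed by no more than 2.14-fold between treatments in a culture, and in it KO 3 stood above Het. Untreated, Ccl8 was at 0.147, 3.43, 1.01, 0.275 and 7.29 CPM. The treated values were 0.248, 5.74, 0.613 and 0.504 CPM. Neither Ccl11 nor Ccl8 passed in either fit, with a smallest edgeR FDR of 0.0441, for Ccl11 with the block.

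Ccl3, Ccl4 and Ccl5 are made by activated macrophages and T cells, and Ccl6 and Ccl9 are related CC chemokines of rodents. Ccl3 had 0.635, 102, 0.302, 0.22 and 42.6 CPM without treatment. After the drug the values were 0.447, 34.9, 0.446 and 0.275 CPM. Ccl3 had 4 to 13 counts in each WT and KO library other than KO control 3, so that the drug's effect was not detectable there, and it was 2.93-fold lower with doxorubicin in Het. Ccl4 stood at 0.391, 49.7, 0.151, 0.33 and 23.8 CPM in control. Treated cultures had 0.546, 3.25, 0.613 and 0.413 CPM. Ccl4 was 15.3-fold lower with doxorubicin in Het and at 3 to 11 counts in the WT and KO libraries other than KO control 3. Control levels of Ccl5 were 0.782, 23, 0.653, 1.65 and 20.7 CPM. Doxorubicin libraries gave 1.24, 34.7, 1.11 and 1.24 CPM of Ccl5. Ccl5 stayed 27.9-fold above WT in Het with doxorubicin. Ccl6 had 2 to 7 counts in untreated WT, KO 1 and KO 2, 83 and 52 in Het and KO 3, and 15, 86, 4 and 4 with doxorubicin. Untreated, Ccl9 was at 4.06, 60.5, 4.87, 3.08 and 43 CPM. Its treated levels were 19.7, 67.4, 18.3 and 15.4 CPM. Ccl9 was 4.85-fold, 3.75-fold and 5.01-fold higher in WT, KO 1 and KO 2 and 1.11-fold higher in Het. It was the 1 of these 5 genes that passed, with the block (a log2 fold change of 1.61 ± 0.36 SE, edgeR FDR 0.00479), and had a log2 fold change of 0.50 ± 0.79 (SE, edgeR FDR 0.614) with genotype as a term.

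Ccl17 and Ccl22 bind Ccr4, Ccl20 binds Ccr6 of Th17 cells and dendritic cells, and Ccl25 binds Ccr9 of gut and thymic T cells. Ccl20 had 7.97, 92.6, 8.9, 8.32 and 92.6 CPM without treatment. Under doxorubicin, Ccl20 was at 3.23, 36.4, 3.23 and 2.93 CPM. Ccl20 fell by nearly the same factor in cultures that differed more than 10-fold in level, 2.47-fold in WT, 2.54-fold in Het, 2.75-fold in KO 1 and 2.84-fold in KO 2. Its fit gave a log2 fold change of -2.50 ± 0.91 (SE, edgeR FDR 0.0433) and, with the block, a log2 fold change of -1.40 ± 0.12 (SE, edgeR FDR 3.83e-05). Ccl17 stood at 2.1, 9.14, 2.56, 2.15 and 7.74 CPM in control. With doxorubicin it was at 3.92, 10.5, 6.46 and 2.98 CPM. Control levels of Ccl25 were 2.35, 9.14, 2.16, 2.86 and 12 CPM. In doxorubicin it measured 4.02, 8.08, 3.84 and 4.45 CPM. Both were higher in untreated Het and KO 3 by 3.68 to 5.12-fold over WT, and neither passed in these fits, with edgeR FDRs of 0.0257 for Ccl17 and 0.0882 for Ccl25 with the block. Without the Het libraries and KO control 3, Ccl25 passed, with a log2 fold change of 0.74 ± 0.21 (SE, edgeR FDR 0.00973), and Ccl17 passed with the block when the Het libraries were left out, with a log2 fold change of 0.94 ± 0.21 (SE, edgeR FDR 0.000476). Ccl22 had at most 3 counts in any library.

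The membrane-bound chemokines Cx3cl1 and Cxcl16 carry their chemokine domain on a mucin stalk and draw cells with Cx3cr1 and Cxcr6. Untreated, Cxcl16 was at 5.47, 41.6, 4.82, 4.57 and 45.8 CPM. The treated values were 23, 70.2, 21 and 18.7 CPM. Cxcl16 was 4.21-fold, 4.35-fold and 4.09-fold higher in WT, KO 1 and KO 2 and 1.69-fold higher in Het, with a log2 fold change of 0.69 ± 0.73 (SE, edgeR FDR 0.452) and, with the block, a log2 fold change of 1.71 ± 0.25 (SE, edgeR FDR 0.000491). Cx3cl1 had 84.4, 53.6, 127, 96.1 and 30.2 CPM without treatment. After the drug the values were 124, 109, 181 and 129 CPM. Cx3cl1, lowest in untreated KO 3 and Het, was 1.35 to 2.03-fold higher in the 4 cultures, with a log2 fold change of 0.84 ± 0.36 (SE, edgeR FDR 0.0787) and, with the block, a log2 fold change of 0.63 ± 0.12 (SE, edgeR FDR 0.00218).

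Of the IL-1 family, Il1b, the secreted form that macrophages release, had 1, 883, 1, 0 and 480 counts without treatment (36.5 CPM in Het and 21.6 CPM in KO 3) and 21, 661, 11 and 9 counts with doxorubicin. In KO 2, with 0 counts in control, it was at least 2.5-fold higher with the drug, counted against 3 counts. Il1b did not pass in either fit (a log2 fold change of -1.5 ± 2.0 SE, edgeR FDR 0.55, and with the block a log2 fold change of 1.09 ± 0.66 SE, edgeR FDR 0.17), but it passed with the block when the Het libraries were left out, with a log2 fold change of 4.14 ± 0.62 (SE, edgeR FDR 1.07e-05), a value that depends on the prior count. Il1a had 1, 193, 0, 0 and 99 counts without treatment and 1, 20, 3 and 1 with doxorubicin, 7.85-fold lower in Het, where Il1b was 1.09-fold lower. Il33 stood at 0.929, 9.51, 3.62, 1.65 and 1.44 CPM in control. Treated cultures had 0.596, 2.24, 1.45 and 0.688 CPM. Il33, an alarmin held in the nucleus, was highest in untreated Het, followed by KO 1, and was 1.56 to 4.25-fold lower with doxorubicin in the 4 cultures, with a log2 fold change of -1.24 ± 0.43 (SE, edgeR FDR 0.0375) and, with the block, a log2 fold change of -1.41 ± 0.29 (SE, edgeR FDR 0.00316). Il18 had 4 to 52 counts in any library and did not pass.

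Il6, Il11 and Lif signal through the shared receptor subunit Il6st (gp130). Control levels of Il11 were 3.86, 4.01, 4.47, 3.08 and 4.19 CPM. Doxorubicin libraries gave 11.1, 18, 8.3 and 8.66 CPM of Il11. All 4 treated libraries were above all 5 controls, and untreated Het and KO 3 did not stand apart. Il11 rose 2.88-fold, 4.5-fold, 1.86-fold and 2.81-fold in WT, Het, KO 1 and KO 2, with a log2 fold change of 1.45 ± 0.25 (SE, edgeR FDR 0.00124) and, with the block, a log2 fold change of 1.53 ± 0.23 (SE, edgeR FDR 0.000581). Untreated, Il6 was at 2.25, 50.6, 2.16, 1.87 and 92.8 CPM. Its treated levels were 3.08, 18, 3.96 and 2.93 CPM. Il6 was 22.5-fold and 41.3-fold above WT in untreated Het and KO 3, and with doxorubicin it was 1.37-fold, 1.83-fold and 1.57-fold higher in WT, KO 1 and KO 2 but 2.81-fold lower in Het. It did not pass in either fit (a log2 fold change of -2.04 ± 1.34 SE, edgeR FDR 0.227, and with the block a log2 fold change of -0.03 ± 0.41 SE, edgeR FDR 0.958). When the Het libraries were left out it passed with the block, with a log2 fold change of 0.66 ± 0.18 (SE, edgeR FDR 0.00241). Lif had 34, 179, 55.4, 37.3 and 112 CPM without treatment. Under doxorubicin, Lif was at 109.9, 238, 85.7 and 81.1 CPM. Lif was 1.32 to 3.23-fold higher with doxorubicin in the 4 cultures, with a log2 fold change of 0.63 ± 0.36 (SE, edgeR FDR 0.167) and, with the block, a log2 fold change of 0.95 ± 0.20 (SE, edgeR FDR 0.00356).

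Csf1 and Il34 are the ligands of Csf1r on macrophages, Csf2 drives granulocytes and macrophages, and Csf3 neutrophils. Csf1 stood at 539, 427, 980.1, 535 and 457 CPM in control. With doxorubicin it was at 216, 255, 301 and 224 CPM. All 4 treated libraries lay below all 5 controls. Csf1 fell 2.5-fold, 1.68-fold, 3.26-fold and 2.38-fold in WT, Het, KO 1 and KO 2, with a log2 fold change of -1.19 ± 0.28 (SE, edgeR FDR 0.00643) and, with the block, a log2 fold change of -1.26 ± 0.15 (SE, edgeR FDR 0.000195). The call with genotype as a term was lost when KO control 2 or either KO doxorubicin library was left out, and when the WT or the Het culture was. Csf2 had 0, 32, 0, 0 and 35 counts without treatment and 14, 142, 16 and 10 with doxorubicin. Counted against 3 counts per library, its rise was at least 4.74-fold in WT, at least 5.91-fold in KO 1 and at least 2.77-fold in KO 2, and it was 5.45-fold in Het. Csf2 passed with the block (a log2 fold change of 3.32 ± 0.64 SE, edgeR FDR 0.00212), a fitted value that depends on the prior count, and not without it (a log2 fold change of 1.5 ± 1.23 SE, edgeR FDR 0.328). Csf3 had at most 29 counts and Il34 between 26 and 69. Neither passed in these fits, and Csf3 passed with the block when the Het libraries were left out, with a log2 fold change of 2.55 ± 0.70 (SE, edgeR FDR 0.00302).

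Il15 supports natural killer and memory T cells, Tnf is the macrophage cytokine that activates NF-kB, and Tslp acts on dendritic cells. Control levels of Il15 were 1.56, 4.09, 0.905, 1.27 and 6.93 CPM. In doxorubicin it measured 2.63, 6.81, 2.95 and 2.38 CPM. Il15 was 1.66 to 3.26-fold higher with doxorubicin in the 4 cultures, with a log2 fold change of 0.24 ± 0.60 (SE, edgeR FDR 0.76) and, with the block, a log2 fold change of 0.99 ± 0.24 (SE, edgeR FDR 0.007). Tnf had 3, 491, 8, 2 and 268 counts without treatment and 7, 35, 7 and 3 with doxorubicin, so it was 11.4-fold lower in Het and was near the floor in WT, KO 1 and KO 2. Untreated, Tslp was at 1.08, 6.7, 8.29, 1.43 and 8.1 CPM. The treated values were 1.19, 3.4, 7.52 and 1.15 CPM. In Tslp the KO 1 culture was as high as Het and KO 3 without treatment and the highest with doxorubicin.

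**Figure D4:**
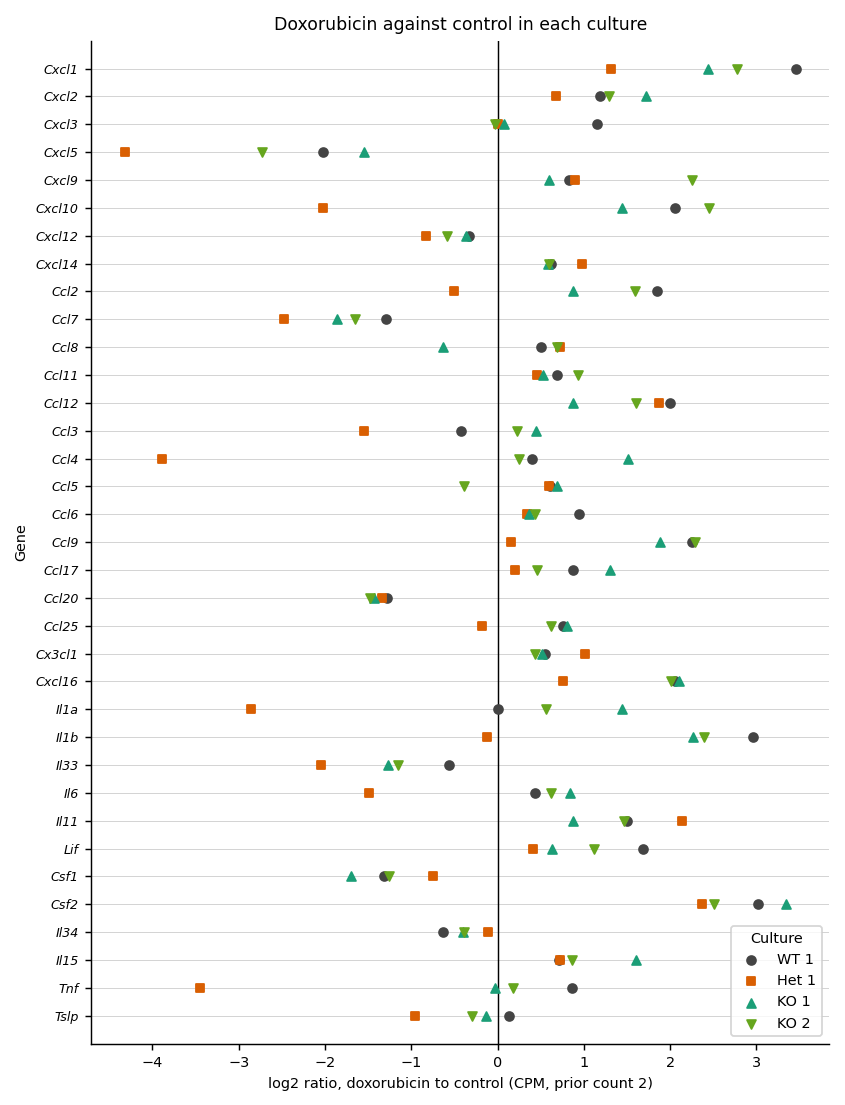
Horizontal axis, log2 ratio of doxorubicin to control within each of the 4 cultures that have both (prior count of 2, 1 library against 1 per point), for the 35 members at a mean of at least 1 CPM. Cxcl5, Ccl7 and Ccl20 lie left of 0 and Cxcl1, Cxcl16, Il11 and Csf2 right of 0 in every culture, and Het (squares) lies left of the other cultures for Cxcl10, Ccl2, Il6 and Tnf.

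Taken by size, Cxcl1 and Csf2 rose and Cxcl5, Ccl7 and Ccl20 fell more than 2-fold in all 4 cultures, that is 6.25% and 9.38% of the 32 tested members. Among all 14883 genes these shares were 17.2% and 10.0%. The median log2 ratio of the 35 members was 0.72 in WT, 0.63 in KO 1 and 0.59 in KO 2 but 0.003 in Het.

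Untreated KO and WT were compared to ask whether the loss of Sall2 alters the members, with 3 KO libraries against 1. In Cxcl1, Cxcl5, Cxcl10, Ccl3, Il1b and Il6, KO 3 stood far above KO 1, KO 2 and WT. Il6, for example, was at 2.16, 1.87 and 92.8 CPM in KO 1, KO 2 and KO 3 and at 2.25 CPM in WT. Where these members are called higher in KO below, the difference rests on KO 3. Of 14470 genes 0 passed (0%), and of the 37 members tested 0 had an unadjusted p under 0.05 by edgeR, as against 10 of all genes. DESeq2 called 0 genes, with 9 of the 37 members and 94 genes at an unadjusted p under 0.05, and a fit with 1 factor of unwanted variation (RUVg, then an exact test) 163 genes and 0 members. The spread within KO was wide, as in Cxcl1, where KO 1, KO 2 and KO 3 had 1.46, 0.826 and 109 CPM and WT 0.880 CPM, for a log2 fold change of 5.41 ± 3.78 (SE, edgeR FDR 1). Without KO control 1 or without KO control 2, 6 members passed as higher in KO (Cxcl1, Cxcl5, Cxcl10, Ccl3, Il1b and Il6) by edgeR, against a background of 0.328% and 0.277%. Without KO control 3, 0 of 27 passed, with 2 members and 320 genes at an unadjusted p under 0.05.

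Against the single Het culture, 0 of 14917 genes passed (0%), with 203 genes and 1 of 38 members, Il33, at an unadjusted p under 0.05, and DESeq2 called 2 genes and 0 members. Without KO control 3, 4748 genes passed and among them 29 members, of which 27 were lower in KO than in Het and 2 higher (Cxcl14 and Cx3cl1), against a background of 15.8% lower and 16.7% higher. Het was not tested against WT. With doxorubicin, 30 of 15256 genes (0.197%) differed between the 2 KO libraries and WT and 0 of the 30 members tested. The smallest member FDR was that of Tslp, a log2 fold change of 1.82 ± 0.43 (SE, edgeR FDR 0.0129), where KO 1 had 7.52 CPM and KO 2 1.15 CPM against 1.19 CPM in WT, so that the difference rests on KO 1. In the test of whether the drug response differed between KO and WT, 0 of 16656 genes passed (0%) and 0 of 38 members had an unadjusted p under 0.05 by edgeR, as against 58 of all genes. With the KO culture as a block 8 genes and 0 members passed.

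Ratios between members of 1 gene cluster compare a pair within each library and so need no scaling between libraries. They were examined after the values had been seen, for the 11 pairs with more than 3 counts of both genes in all 9 libraries. The Ccl2 to Ccl7 count ratio was 1.22, 1.04, 1.25, 1.16 and 0.932 in control and 10.9, 4.07, 8.31 and 11.0 with doxorubicin. On the log2 scale it was 0.15 ± 0.18 (SD, n = 5) in control and 3.0 ± 0.67 (SD, n = 4) with the drug, a 7.17-fold rise in which the groups do not overlap (exact two-sided permutation test, p = 0.0159, adjusted over 11 pairs 0.0582). It was higher in 4 of 4 cultures, and with any 1 library left out the difference ranged from 2.69 to 3.16. Cxcl5 and Cxcl1 had a log2 count ratio of 0.56 ± 1.13 (SD, n = 5) in control and of -4.66 ± 1.16 (SD, n = 4) with doxorubicin, lower in 4 of 4 cultures (exact two-sided permutation test, p = 0.0159, adjusted 0.0582). The Ccl7 to Ccl12 ratio fell 13.5-fold, from 6.69 ± 0.62 (SD, n = 5) to 2.94 ± 0.49 (SD, n = 4) in log2, lower in 4 of 4 cultures (exact permutation test, p = 0.0159, adjusted 0.0582). The other 8 pairs overlapped. The test was unpaired and took the 9 libraries as independent, although control and doxorubicin libraries of the same culture are not. Its p-values therefore do not treat the cultures as the replicates. The smallest p this test allows is 0.0159, and 0 of 11 pairs had an adjusted p under 0.05.

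**Figure D5:**
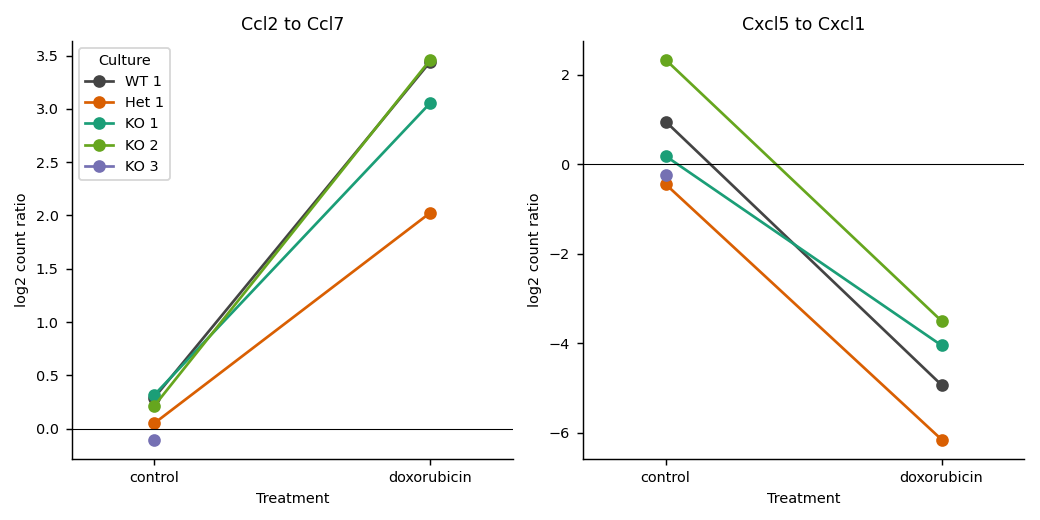
Log2 count ratio of Ccl2 to Ccl7 (left) and of Cxcl5 to Cxcl1 (right) in control and doxorubicin, 1 point per library, with lines joining the libraries of a culture. All lines rise on the left and fall on the right, and KO 3, with no doxorubicin library, is a single point in each panel.

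Receptors and binding partners of the members were counted as a list of 43 genes, of which 28 were tested. With genotype as a term 4 rose and 5 fell, and with the block 4 and 9. For this list and those that follow, the background over all genes is 21.9% higher and 20.2% lower with genotype as a term and 30.6% and 28.8% with the block, so that the 4 receptors that rose in either fit are fewer than that share. Cxcr4, the receptor of Cxcl12, was at 1.17 to 3.35 CPM in control and at 76.7 to 142 CPM with doxorubicin (log2 fold change 5.96 ± 0.38 SE, edgeR FDR 1.62e-05). Il1rn, the IL-1 receptor antagonist, fell (log2 fold change -3.20 ± 0.53 SE, edgeR FDR 0.00108) from 16.9 to 73.1 CPM in control to 3.85 to 6.15 CPM. Cx3cr1, the receptor of Cx3cl1, fell too (log2 fold change -2.36 ± 0.31 SE, edgeR FDR 0.000332).

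Of 24 genes of the NF-kB pathway, all tested, 4 rose and 7 fell with genotype as a term (7 and 9 with the block), where the same background gives 21.9% and 20.2% (30.6% and 28.8%). Nfkbie, an inhibitor of NF-kB, rose (log2 fold change 1.90 ± 0.22 SE, edgeR FDR 0.000171), while Bcl3, a nuclear cofactor (log2 fold change -2.65 ± 0.47 SE, edgeR FDR 0.00156), and the adaptor Traf2 (log2 fold change -1.88 ± 0.19 SE, edgeR FDR 9.95e-05) fell. Of 10 regulators of cytokine mRNA decay 2 rose and 2 fell (3 and 3 with the block). Hnrnpd, which binds AU-rich elements, fell from 74.1 to 173 CPM in control to 30.7 to 31.9 CPM with doxorubicin (log2 fold change -1.96 ± 0.29 SE, edgeR FDR 0.000641), and Zfp36, which speeds the decay of such transcripts, rose (log2 fold change 1.22 ± 0.14 SE, edgeR FDR 0.000168).

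Of the 16 interferon-stimulated genes 0 passed by edgeR with genotype as a term (1 at an unadjusted p under 0.05), where the median log2 fold change was -0.61, and with the block 2 rose, 1 fell and the median was 0.87. Irf7, the interferon-induced regulator, stood at 1.17, 116, 1.56, 1.38 and 138 CPM in control and at 76.8, 158, 83.3 and 76.8 CPM with doxorubicin. Against the same 21.9% and 20.2% of all genes, of 12 sensors and processing enzymes of cytokines 0 rose (4 at an unadjusted p under 0.05 in either direction) and 1 fell, Tmem173, the adaptor STING (log2 fold change -1.85 ± 0.36 SE, edgeR FDR 0.0025), and with the block 5 rose and 2 fell (30.6% and 28.8% of all genes). Of 10 p53 targets, a check of the drug, 0 passed by edgeR with genotype as a term (2 at an unadjusted p under 0.05), and with the block Fas rose and Cdkn1a and Plk2 fell. Cdkn1a was at 393 to 545 CPM in control and at 270.4 to 336 CPM with doxorubicin.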

How the data were processed

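RNA was extracted with RNeasy, depleted of rRNA (Ribo-Zero Gold), made into stranded libraries (TruSeq) and sequenced as single reads. The authors aligned the reads with HISAT2 (2.1.0 in the submitters' processing notes) to mm10 and deposited raw counts per gene from HTSeq in union mode, without normalization, the strand setting not being given in the sources used here. Reads of near-identical neighbours and of overlapping genes may be split or lost in such counting. The 40 runs are 10 libraries of 4 runs each, already summed in the deposited counts, and 1 library with identical counts was left out.

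Counts were scaled by TMM in edgeR 4.0.16 (R 4.3.3), filtered with filterByExpr and tested over all genes with its quasi-likelihood test, with the Benjamini-Hochberg adjustment and an FDR under 0.01. Doxorubicin was compared with control with genotype as a term, KO with WT and with Het within a treatment, and the drug response between KO and WT as an interaction. An alternative takes the culture as a replicate block. Its pairing comes from the numbers in the sample titles. The difference between KO cultures 1 and 2 in control correlated with that in doxorubicin over 14883 genes (Pearson r = 0.385, a description across genes). Other alternatives were DESeq2 1.42.0, other scalings and filters, an FDR of 0.05, RUVg with 1 factor, and libraries left out. The joint omission of the Het culture and KO control 3 was chosen after seeing the data. The block with other scalings or with any culture left out, the Het culture included, was not planned in advance either. Log2 CPM used a prior count of 2. Pair ratios were tested by an exact permutation test over libraries, without pairing by culture (scipy 1.17.1). The members and lists were chosen with earlier results of these data known. Values in every library were given for members that passed in a comparison without the block or had, at a mean of at least 1 CPM, a change over 2-fold in 1 direction in all 4 cultures or an untreated range over 4-fold, which takes 33 of the 40, and the other members, Cxcl14 and Csf3 among them, are given by ranges and counts. Counting error only is covered by the floor of 3 counts.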

Additional observations from a re-analysis of the deposited data

Results flagged for a closer look

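Among the 4 doxorubicin libraries, the Het library stood apart on the high side in 8 members by Dixon's criterion, in log2 CPM 4.62 for Cxcl2, 4.08 for Cxcl9, 5.13 for Ccl3, 5.12 for Ccl5, 6.08 for Ccl9, 5.19 for Ccl20, 6.13 for Cxcl16 and 4.18 for Il6. Among the 5 control libraries, KO control 1 stood apart in Csf1, at a log2 CPM of 9.94. Of 70 groups examined 9 stood out in this way. The criterion's rate of about 1 in 20 by chance is for independent groups. The members share the same libraries, so the count cannot be set against that rate. The macrophage marker sum of that Het library, 1106 CPM, was also the highest of the doxorubicin libraries, and its part was not tested.

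The drug response of 3 members went down in the Het culture and up in both KO cultures, each time by more than the counting interval of the ratio. The log2 ratio of doxorubicin to control in Het was -2.02 for Cxcl10, -0.50 for Ccl2 and -1.49 for Il6. This difference between the genotypes was not tested.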

How the results depend on the processing

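For doxorubicin against control, where 1 member rose and 1 fell, 2 rose with library sizes alone, 2 fell with every gene of at least 1 count tested, and 2 rose and 5 fell at an FDR of 0.05. With the culture as a replicate block 10 rose and 6 fell. With the repeated library taken as KO culture 3 in that block 2 fell. In KO alone 1911 genes and 0 members in either direction passed. Leaving out 1 replicate at a time gave 4102 to 8971 genes (4156 without WT), 1 to 10 members higher and 0 to 5 lower, the highest counts without KO control 3. Without the Het culture and KO control 3, 9923 genes passed, 12 members higher and 4 lower, and with the block as well 11065, 14 and 6. Within the block, 10 rose and 5 fell with library sizes alone, 10 and 6 without Rn45s, 7 and 5 without the WT culture, 17 and 6 (11090 genes) without Het, 5 and 4 without KO culture 1, and 6 and 4 without KO culture 2.

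For KO against WT in control, 163 genes passed with RUVg, and 0 to 47 genes and 0 to 6 members when 1 KO library was left out. For KO against Het, 2 genes passed by DESeq2, and 0 to 4748 genes, 0 to 2 members higher and 0 to 27 lower when 1 KO library was left out, 5 genes without KO control 2. For KO against WT with doxorubicin, 5 genes passed by DESeq2, 6 with all 4 doxorubicin libraries in 1 fit and 46 at an FDR of 0.05, with 1 member (Tslp) there and with every gene of at least 1 count. In the interaction 8 genes passed with the KO culture as a replicate block. The cause of these moves was not tested.

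The log2 fold change of Cxcl1 doxorubicin against control, -0.26, turned to 0.22 with treatment alone, 2.36 with the block, 1.16 with the repeated library as KO culture 3, 2.36 without KO control 3, 0.74 and 0.81 without KO doxorubicin 1 and 2 (-0.45 without KO control 2), with a range of -1.33 to 2.36 over single cultures or libraries left out, and 2.95 without Het and KO control 3. Within the block it was 2.98 without Het and KO culture 3, 2.48 with library sizes alone, 2.36 without Rn45s, and 2.06, 2.99, 2.34 and 2.25 without the WT culture, the Het culture, KO culture 1 and KO culture 2. In KO alone Ccl12 doxorubicin against control reversed to -0.75, Ccl9 doxorubicin against control to -0.018 and Il15 doxorubicin against control to -0.19. With 1 library left out, Ccl2 to Ccl11, log2 count ratio, doxorubicin minus control, ranged from -0.067 to 0.68 and Cx3cl1 to Ccl17, log2 count ratio, doxorubicin minus control, from -0.098 to 0.89. Of 280 ratios between libraries, 49 moved beyond their counting interval with library sizes alone, 5 of them changing sign, and 0 without Rn45s or with a prior count of 0.5. With that prior the largest move was still 1.94 in log2, and the counting interval is wide at low counts. Ratios of members with few counts thus do depend on the prior count. At this depth, members at or under 3 counts in WT and KO could not be compared there.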
